A study of Mus musculus with 8 samples.

Results

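Short heavy-chain CDR3s were the subject: distinct CDR3 nucleotide sequences, counted per sample, whose translation runs complete from the conserved cysteine to the closing tryptophan and holds 10 or fewer residues with both of these counted. By that rule 444 of 3882 complete heavy-chain clonotypes were short, 379 of 3141 in the controls and 65 of 741 in the knockouts. They came from RNA-seq of pro-B cells, the B-lineage precursors that rearrange the immunoglobulin heavy chain, taken from mice 8 weeks of age by sorting marrow cells that stained for B220 and Cd43 but for neither IgM nor CD25. Of 8 untreated samples, 4 were labelled control and 4 Setd2 knockout, and all had one sequencing batch. The strain, the design of the knockout allele, any Cre driver and what the controls carry are not given in the sources used here, and no label ties a replicate to an animal, so each p-value measures sample-to-sample spread only, and part of that may be technical. Setd2 codes for a histone H3 lysine methyltransferase, and its RNA was not analysed here.

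The heavy-chain CDR3 is the loop encoded where a VH, a DH and a JH segment are joined, and it contributes most to the diversity of the antigen-binding site. Its length is set by which segments join, by how many bases nucleases trim from their ends, and by how many bases terminal transferase adds at the joints. Short loops can arise through heavy trimming, few added bases or a DH segment reduced to a stub, and short CDR3s are known to be common in fetal B-cell development, when terminal transferase is low.

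The germline JH segments show what a CDR3 can inherit at its 3′ end. They lie in the immunoglobulin heavy-chain locus on chromosome 12 of mm10 as single coding segments. The authors' segment read counts place IGHJ1 at chr12:113429781-113429833, IGHJ2 at chr12:113429468-113429515, IGHJ3 at chr12:113429085-113429132 and IGHJ4 at chr12:113428514-113428567. In the GENCODE M21 sequences, up to the tryptophan codon, in capitals, IGHJ1 gives 22 bases, IGHJ2 and IGHJ3 give 17 bases each and IGHJ4 gives 23 bases. The JH contribution is part of the length that defines the short clonotypes, so JH use is not independent of that definition.
IGHJ1: ctactggtacttcgatgtcTGG
IGHJ2: actactttgactacTGG
IGHJ3: cctggtttgcttacTGG
IGHJ4: attactatgctatggactacTGG

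The sequences next are the 3 short clonotypes with the most reads in each group, 1 of the shortest in each group, and the best-covered clonotype just outside the limit in each group. Capitals mark the bases that match the germline JH gene without a break, read back from the 3′ end.
Control 2, 10 residues, IGHJ2, VH14, 14 reads: tgtactaggaacctCTACTTTGACTACTGG
Control 4, 9 residues, IGHJ3, VH1, 14 reads: tgtgcaaggagagaGTTTGCTTACTGG
Control 4, 10 residues, IGHJ2, VH7, 13 reads: tgtgcaagagggggaccCTTTGACTACTGG
Knockout 2, 10 residues, IGHJ2, VH14, 11 reads: tgtgctcgagggtACTACTTTGACTACTGG
Knockout 2, 10 residues, IGHJ2, VH1, 10 reads: tgtgcaaggagaaggTACTTTGACTACTGG
Knockout 2, 7 residues, IGHJ3, VH1, 9 reads: tgtgcaaaaggaGCTTACTGG
Control 3, 6 residues, VH1, 1 read: tgtgcaggggagccctgg
Knockout 1, 6 residues, VH2, 1 read: tgtgccaaacaggactgg
Control 3, 11 residues, IGHJ2, VH1, 13 reads: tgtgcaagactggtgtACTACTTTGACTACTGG
Knockout 2, 11 residues, IGHJ2, VH1, 19 reads: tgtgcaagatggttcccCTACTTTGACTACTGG

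In the 6 best-covered short clonotypes shown, a VH end and few bases between were followed by 9 to 17 bases of JH, where 17 is the whole IGHJ2 stretch. The 6-residue clonotypes shown are 1 of 3 in control 3 and the only one in knockout 1, each had 1 read, and neither could be assigned to a JH gene. Reads here are CDR3-spanning reads, the number of reads over the CDR3 recovered from the authors' expression score. Ties were listed by sequence: control 3 held another short clonotype of 13 reads and knockout 4 another of 9 reads.

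Between 12102 and 100600 reads fell on the heavy-chain locus in a sample, and CDR3-spanning reads over complete clonotypes ran from 1633 to 2324 in the controls and from 120 to 1227 in the knockouts. Knockout 3 was the shallowest sample in both, and its 5 short clonotypes make each of its percentages coarse. It also stood apart in what it shared: 8 of its 73 complete CDR3 nucleotide sequences (10.96%), 1 short and 7 longer, were identical to one in control 3, while the other 15 pairs of a control and a knockout shared 0 to 3. The source of this overlap was not tested. Heavy-chain constant-region reads of the kind that mark later, class-switched cells, which the sort should hold few of, were present throughout: IGHG made up 20.8 to 35.5% of constant-region reads in the controls and 2.66 to 14.9% in the knockouts, and IGHA 17.1 to 33.3% and 4.02 to 34.1%. The IGHG share thus moved with the groups alongside the number of short clonotypes, while the IGHA ranges overlapped, and the part of switched transcripts in the results was not tested.

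Control samples held more short clonotypes than knockout samples, and also more clonotypes of any length. Controls 1 to 4 had 108, 83, 95 and 93 short clonotypes, and knockouts 1 to 4 had 20, 26, 5 and 14. No knockout reached the lowest control. Complete clonotypes of all lengths numbered 855, 820, 665 and 801 in the controls and 194, 248, 73 and 226 in the knockouts, also without overlap. On the log2(number + 0.5) scale the knockouts fell by 2.72, which is 6.57-fold on the ratio of geometric means (two-sided exact permutation p = 0.0286, the smallest that 4 against 4 samples allow; Benjamini-Hochberg adjusted p = 0.114 over the 4 measures of amount). At equal depth, 120 CDR3-spanning reads per sample, the expected number was 11.9 ± 1.31 in the controls and 5.69 ± 2.78 in the knockouts (SD, n = 4 each) with a log2 difference of -1.19 (exact permutation p = 0.0286). Complete clonotypes of all lengths were then expected at 108.6 to 110.5 in the controls and 65.3 to 84.8 in the knockouts. Per 1000000 heavy-locus reads the log2 difference in short clonotypes was -1.76, and without knockout 3 the log2 difference in their number was -2.25 (both exact permutation p = 0.0286). In bulk samples, fewer cells with such a rearrangement and less RNA per cell cannot be told apart.

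As a share of all complete clonotypes, short ones made up 12.6, 10.1, 14.3 and 11.6% in the controls and 10.31, 10.48, 6.85 and 6.19% in the knockouts. Knockouts 1 and 2 lay at the level of control 2, and knockouts 3 and 4 lay below every control. The means were 12.2 ± 1.75% and 8.46 ± 2.25% (SD, n = 4 each), and the difference of -3.70 percentage points did not pass the exact permutation test (p = 0.0857, adjusted p = 0.114). Without knockout 3 it was -3.17 points (exact permutation p = 0.114). The 95% Wilson interval of the share, which covers counting error only, was 8.24 to 12.4% in control 2 and 2.96 to 15.05% in knockout 3. With the limit set at 9 residues the groups no longer overlapped (difference -2.95 percentage points, exact permutation p = 0.0286), and likewise over the 372 short clonotypes whose contig lists no constant region (-4.32, exact permutation p = 0.0286). The limit of 9 left 26 short knockout clonotypes, as few as 2 in a sample.

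**Figure D1:**
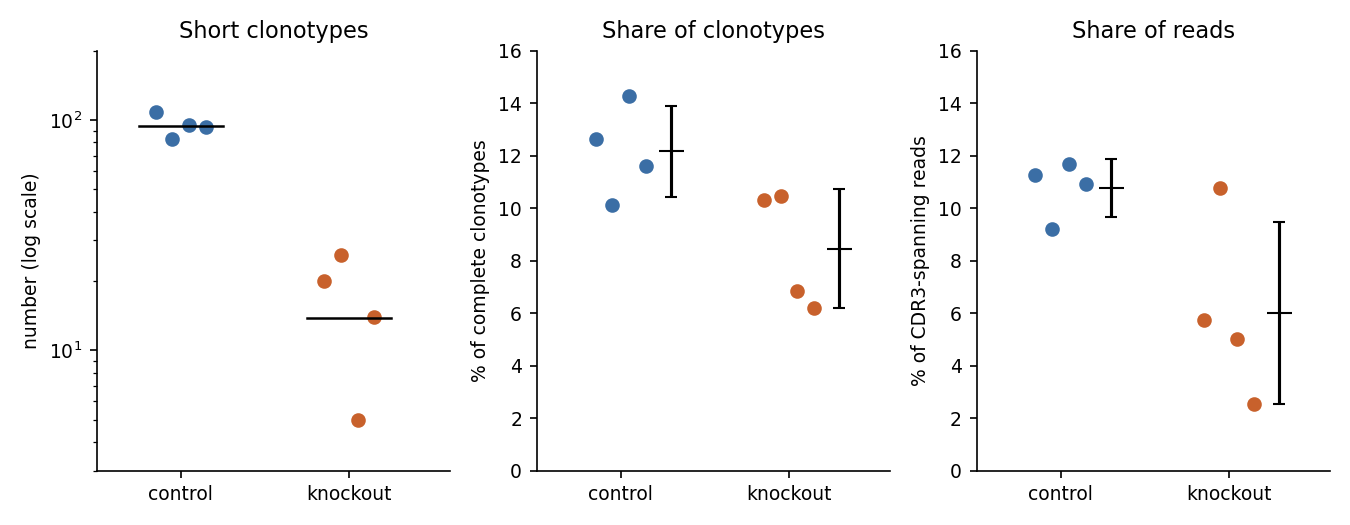
Number of short clonotypes (left, log axis, bar at the geometric mean), their share of complete clonotypes (middle) and their share of CDR3-spanning reads (right), 1 point per sample, with mean and SD beside the points in the middle and right panels. The numbers do not overlap between groups (83 to 108 against 5 to 26), while in both shares knockout 2 sits among the controls.

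Read abundance gave a similar picture, with more scatter in the knockouts and less in the controls. Short clonotypes took 11.3, 9.21, 11.7 and 10.9% of CDR3-spanning reads in the controls and 5.73, 10.8, 5 and 2.53% in the knockouts, from 191 to 229 reads per control and 6 to 89 per knockout. Knockout 2 stood at the control level and the other 3 knockouts below all controls (10.8 ± 1.09% against 6.01 ± 3.46%, SD, n = 4 each, exact permutation p = 0.0571, adjusted p = 0.114). Without knockout 2 the difference was -6.35 percentage points (exact permutation p = 0.0286). Without any 1 of the other samples it ran from -5.28 to -3.60 points and did not pass (exact permutation p = 0.0571 to 0.0857). A short clonotype had on average 2.12, 2.58, 2.01 and 2.46 reads in the controls and 2.4, 3.42, 1.2 and 2.21 in the knockouts, a difference that did not pass the exact permutation test (p = 0.8286). Within samples, short clonotypes had fewer reads each than longer ones in 7 of 8 samples (log2 difference -0.43 ± 0.47, SD, n = 8, exact sign-flip p = 0.0156), and 47.7% of short against 34.5% of longer clonotypes rested on 1 read. Among clonotypes with 2 or more reads the log2 difference was -0.28 (exact sign-flip p = 0.180).

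Counts by length show which short clonotypes were present. Clonotypes of 10 residues numbered 54, 36, 42 and 49 in the controls and 11, 18, 3 and 7 in the knockouts, and those of 11 residues, just outside, 52, 59, 69 and 60 against 10, 20, 6 and 12. Clonotypes of 9 residues numbered 22, 29, 22 and 21 against 4, 3, 1 and 3. Lengths of 8 and 7 residues together held 32, 18, 28 and 23 control and 4, 5, 1 and 4 knockout clonotypes. At 6 residues there were 3 clonotypes in control 3 and 1 in knockout 1, and none shorter. Clonotypes of 10 residues thus made up 39 of the 65 short knockout clonotypes and 181 of the 379 short control clonotypes, a difference that was not tested.

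**Figure D2:**
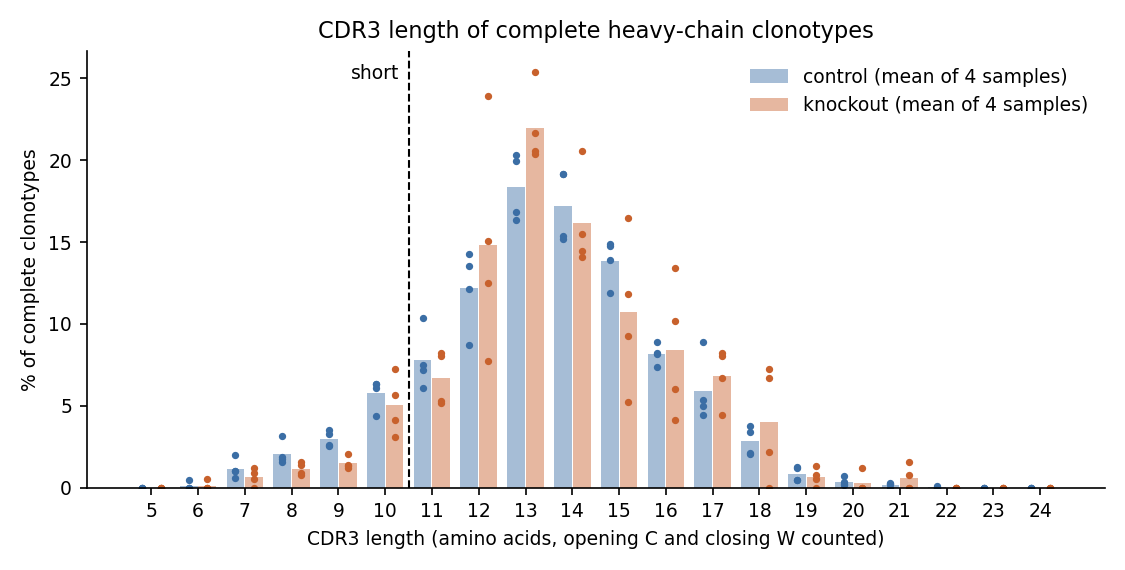
CDR3 length in residues (x axis) against the percentage of each sample's complete clonotypes (y axis), with bars at the mean of 4 samples and 1 point per sample; the dashed line is the limit of 10 residues. The groups overlap at 10 residues and each knockout lies below each control at 9 residues.

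JH use set short clonotypes apart from longer ones of the same sample: IGHJ2 was higher and IGHJ1 and IGHJ4 were lower. IGHJ2 made up 57.1, 55.7, 61.6 and 49.3% of short clonotypes with a listed JH gene in the controls and 64.3, 68.2, 40 and 63.6% in the knockouts. It was higher among short than longer clonotypes in 8 of 8 samples, by 17.2 ± 8.71 percentage points (SD, n = 8, exact sign-flip test, adjusted p = 0.0313 over 4 genes). IGHJ4 was lower in 7 of 8 samples, by a difference of -8.55 ± 7.06 points (adjusted p = 0.0313, exact sign-flip test), and IGHJ1 in 7 of 8 samples, by -9.30 ± 7.09 points (adjusted p = 0.0313, exact sign-flip test). IGHJ3, at 12.3 to 23.9% of short clonotypes in 7 samples and 2 of 5 in knockout 3, did not pass (0.66 points, adjusted p = 0.891, exact sign-flip test). Of the 4 JH genes tested, 75% were called in this comparison. Without any 1 of control 1, control 2, knockout 1, knockout 2 or knockout 3 all 3 calls rose to an adjusted p of 0.0625 in the exact sign-flip test, at differences of 15.2 to 18.2 points for IGHJ2. The IGHJ4 call was also lost without control 4 and over contigs with no listed constant region (-8.31 points, adjusted p = 0.177, exact sign-flip test). At a limit of 9 residues IGHJ2 kept its call (20.01 points, adjusted p = 0.0313), while IGHJ1 (-8.49 points, adjusted p = 0.0781) and IGHJ4 (-5.67 points, adjusted p = 0.297) lost theirs by the same exact test. At that limit 20 short knockout clonotypes list a JH gene.

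The JH listed for IGHJ4 was not always the JH read. By sequence, 27 of 61 short clonotypes listed as IGHJ4 (44.3%) matched another JH gene better, 21 of them IGHJ2 and 6 IGHJ3. For longer ones it was 119 of 686 (17.3%). The bases that follow the CDR3 were compared first, and ties were settled by the longest JH match at the 3′ end of the CDR3. Listings of the other 3 genes matched their own gene in all but 1 of 280 short clonotypes. A further 103 short clonotypes had no listed JH gene, with contigs ending a median of 2 bases after the CDR3, and 53 of these could be assigned by sequence. The first 2 bases after the CDR3 are the same in every JH gene. Where a contig ended there, the CDR3 bases decided, and the ends of IGHJ2 and IGHJ4 are alike.
With JH assigned by sequence, IGHJ2 was higher by 17.7 points, IGHJ1 lower by a difference of -10.4 points and IGHJ4 lower by -9.87 points, each in 8 of 8 samples (adjusted p = 0.0104, exact sign-flip test). IGHJ4 then made up 32 of 332 short control clonotypes and 9 of 62 short knockout clonotypes. Contig extent moved with the IGHJ4 value: among clonotypes with 30 or more contig bases before the CDR3, the listed IGHJ4 difference was -1.71 points (adjusted p = 0.656, exact sign-flip test), where IGHJ2 was 10.8 points (adjusted p = 0.0781) and IGHJ1 -11.3 points (adjusted p = 0.0313). Median contig bases before the CDR3 were 40 for short and 29 for longer clonotypes.

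Between the groups, IGHJ1 was the JH gene that differed among short clonotypes. It was listed for 8.33, 3.28, 8.22 and 11.3% of short clonotypes in the controls and for none in any knockout, that is 23 of 289 against 0 of 52 with a listed gene, and a count of 0 of 52 allows a share of up to 5.77%, which covers counting error over the pooled clonotypes only. Every control lay above every knockout, though control 2 rested on 2 clonotypes (7.77 ± 3.31% against 0%, SD, n = 4 each, exact permutation p = 0.0286, adjusted p = 0.114 over 4 genes). IGHJ1 was 1 of 4 JH genes at an unadjusted p under 0.05, a share of 25%, and none passed after adjustment. By sequence the counts were 29 of 332 against 0 of 62, which allows up to 4.84%. With any 1 knockout left out, the exact permutation p was 0.0571.

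Among longer clonotypes the order was the reverse. There IGHJ1 made up 10.8, 9.44, 12.8 and 10.4% in the controls and 14, 14.04, 15.1 and 18.9% in the knockouts (exact permutation p = 0.0286, adjusted p = 0.114, again 25% of the 4 genes). The gap between short and longer clonotypes was therefore -3.09 points in the controls and -15.5 points in the knockouts, and the difference of these differences was -12.4 points (exact permutation p = 0.0286, adjusted p = 0.114 over 4 genes, 25% called). It was -10.1 points with JH by sequence. Short IGHJ2, IGHJ3 and IGHJ4 shares did not pass the exact permutation test between groups (differences 3.07, 4.40 and 0.31 points, p = 0.714, 0.686 and 0.857).

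**Figure D3:**
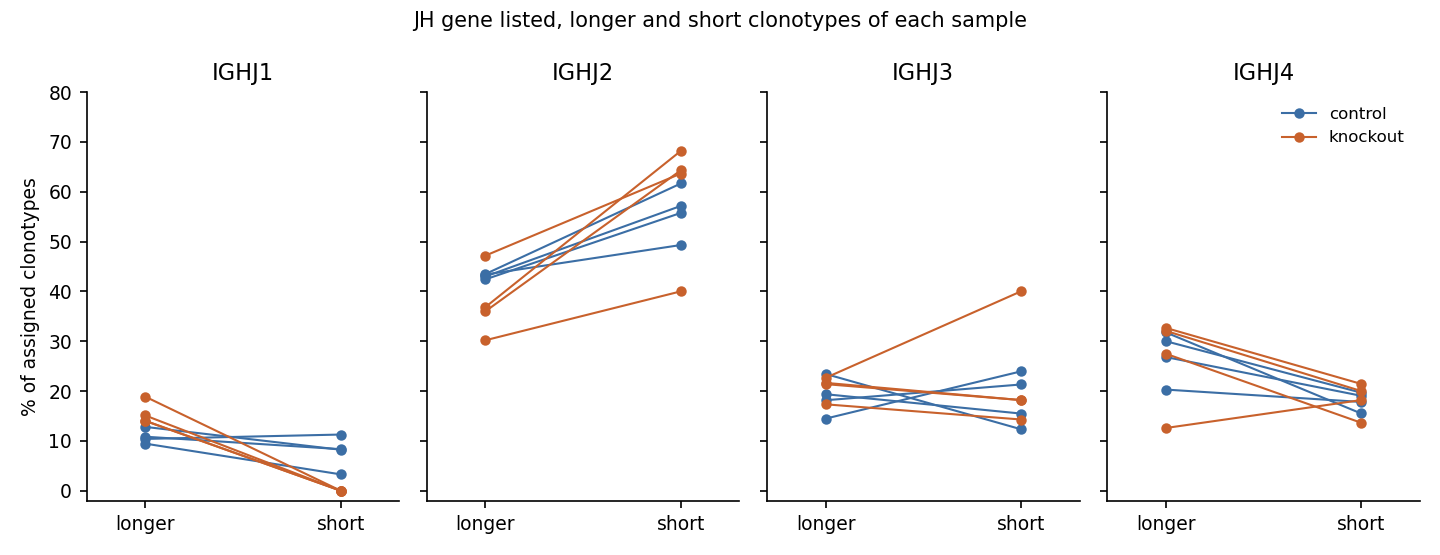
Percentage of clonotypes with a listed JH gene (y axis) for longer and short clonotypes of each sample, joined by a line, 1 panel per gene. IGHJ2 rises from longer to short in all 8 samples, and IGHJ1 falls to 0 in the 4 knockouts while the short controls lie between 3.28 and 11.3%.

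VH families of the middle of the locus were more frequent among short clonotypes and the distal ones less frequent. Families were grouped by place: VH2 and VH5 nearest to the DH segments, VH1 and VH8 farthest, the others between. Of 444 short clonotypes, 361 listed a single family. Intermediate families made up 19.8, 41.2, 31.1 and 29.9% of these in the controls and 31.3, 42.9, 0 and 40% in the knockouts. They were higher than among longer clonotypes in 7 of 8 samples, by 16.9 ± 15.1 points (SD, n = 8), and distal families were lower in 7 of 8, by a difference of -13.4 ± 12.7 points (both adjusted p = 0.0469, exact sign-flip test, 2 of 3 groups or 66.7% called). Knockout 3, with 4 assigned short clonotypes, was the exception in both, and without it the differences were 21.5 and -16.6 points (adjusted p = 0.0234, exact sign-flip test). Without any 1 of the other 7 samples the adjusted p ran from 0.0703 to 0.0938, and with families assigned by sequence it was 0.0703, by the same exact test. Both calls were also lost with sequences 1 base apart merged (adjusted p = 0.0586), with 2 or more reads (0.105 for intermediate, 0.0703 for distal), weighed by reads (0.0703) and with 30 or more contig bases before the CDR3 (0.117), and the intermediate call at 9 residues (0.0586), at differences of 14.1 to 17.4 points for intermediate and -17.98 to -8.78 for distal families (exact sign-flip test).

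No VH group passed the test between control and knockout short clonotypes, with 0 of 3 or 0% called. Proximal families made up 10.99, 5.88, 5.41 and 2.60% in the controls and 18.8, 4.76, 25 and 20% in the knockouts (exact permutation p = 0.114, adjusted p = 0.343). Distal families made up 69.2, 52.9, 63.5 and 67.5% against 50, 52.4, 75 and 40% (exact permutation p = 0.314). Among longer clonotypes the proximal share was 12.6 ± 1.59% in the controls and 17.9 ± 3.75% in the knockouts (SD, n = 4 each, exact permutation p = 0.0286, adjusted p = 0.0857, 33.3% of the 3 groups), and the difference of differences was called for 0 of 3 groups. Without knockout 2 the proximal difference between short clonotypes was 15.03 points (exact permutation p = 0.0286). Without any 1 of the other samples it ran from 8.29 to 12.5 points and did not pass (exact permutation p = 0.114 to 0.2). The length limit also moved these values: at 9 residues the proximal difference was 23.9 points and the distal one -24.2, and at 11 residues the distal one was -14.8, each with an exact permutation p of 0.0286, where the limit of 10 gave 10.9 and -8.96. The limit of 9 left 26 short knockout clonotypes, as few as 2 in a sample, so its shares are coarse.

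A pair of small families accounted for much of the intermediate share. VH14, whose members lie in the DH-near part of the locus among other intermediate families, was listed for 46 short clonotypes, 38 of 310 with a family in the controls and 8 of 51 in the knockouts, against 38 of 1997 and 11 of 509 longer clonotypes. In the short controls it made up 9.89, 20.6, 12.2 and 7.79%, and in knockouts 1 and 2 12.5 and 28.6%, while knockouts 3 and 4 had none among 4 and 10. VH6 was listed for 28 of 310 short control and 3 of 51 short knockout clonotypes, against 22 of 1997 and 8 of 509 longer ones. Short minus longer, VH14 differed by 9.33 ± 10.1 points, higher in 6 of 8 samples, and VH6 by 5.92 ± 5.86 points, higher in 6 of 8, but over the 6 families with 10 or more short clonotypes the adjusted p was 0.0938 for each (exact sign-flip test). VH1, the largest family with 223 short clonotypes, was lower in 7 of 8 samples (-11.8 ± 11.99 points, adjusted p = 0.0938, exact sign-flip test). VH2, with 18, VH3, with 11, and VH9, with 11, did not pass (adjusted p = 0.656, 0.551 and 0.992, exact sign-flip test). With families assigned by sequence, VH14 made up 72 of 399 short and 80 of 2796 longer clonotypes, with 1 of 12 short ones in knockout 4. The difference was then 12.8 ± 11.4 points, higher in 7 of 8 samples (adjusted p = 0.0938, exact sign-flip test). For VH6 it was 4.95 ± 5.24 points, higher in 5 of 8 (adjusted p = 0.156, exact sign-flip test). Reads on the gene segments themselves placed VH14 at 4.21 to 6.30% of VH reads in the controls and 1.23 to 7.51% in the knockouts, above its share of longer clonotypes in the controls.

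Single VH genes could be named for 56 short clonotypes only, 47 of them in the controls. IGHV1-9, at chr12:114583569-114583862, was listed alone for 9, all in controls, IGHV14-3, at chr12:114059845-114060273, for 7 in 5 samples, and IGHV1-58, at chr12:115312166-115312597, for 5, as many as IGHV1-7. VH genes are near-identical copies, so the choice between close relatives is uncertain.

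**Figure D4:**
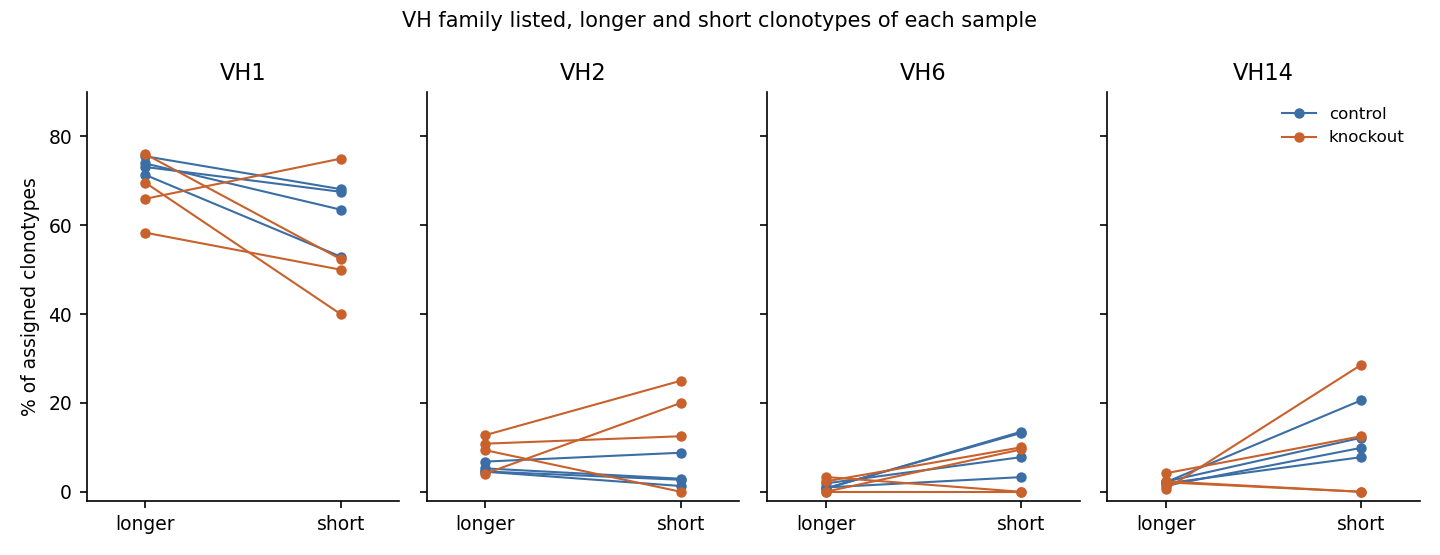
Percentage of clonotypes with a single listed VH family (y axis) for longer and short clonotypes of each sample, joined by a line, for VH1, VH2, VH6 and VH14. VH14 rises in the 4 controls and in knockouts 1 and 2 and stands at 0 among short clonotypes of knockouts 3 and 4.

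Most of the missing length lay between the VH and JH ends. Over the 369 short clonotypes with a listed VH gene and a JH gene by sequence, the CDR3 averaged 27.4 bases, of which 7.53 matched the end of a listed VH gene, 11.1 matched the JH gene and 8.76 lay between. For longer clonotypes the mean was 42.0 bases, with 8.56, 14.2 and 19.3. Since length defines the set, these are a description. In single samples the stretch between was 8.13 to 9.73 bases in the short controls and 5.91 to 9.74 in the short knockouts. Of these short clonotypes 1 had no base between, in control 1. The whole germline JH stretch was kept by 23 of 243 short IGHJ2 clonotypes (9.47%) and 6 of 81 of IGHJ3 (7.41%), and by 0 of 29 of IGHJ1 and 0 of 41 of IGHJ4, whereas 26.5% of longer IGHJ2 clonotypes kept it.

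**Figure D5:**
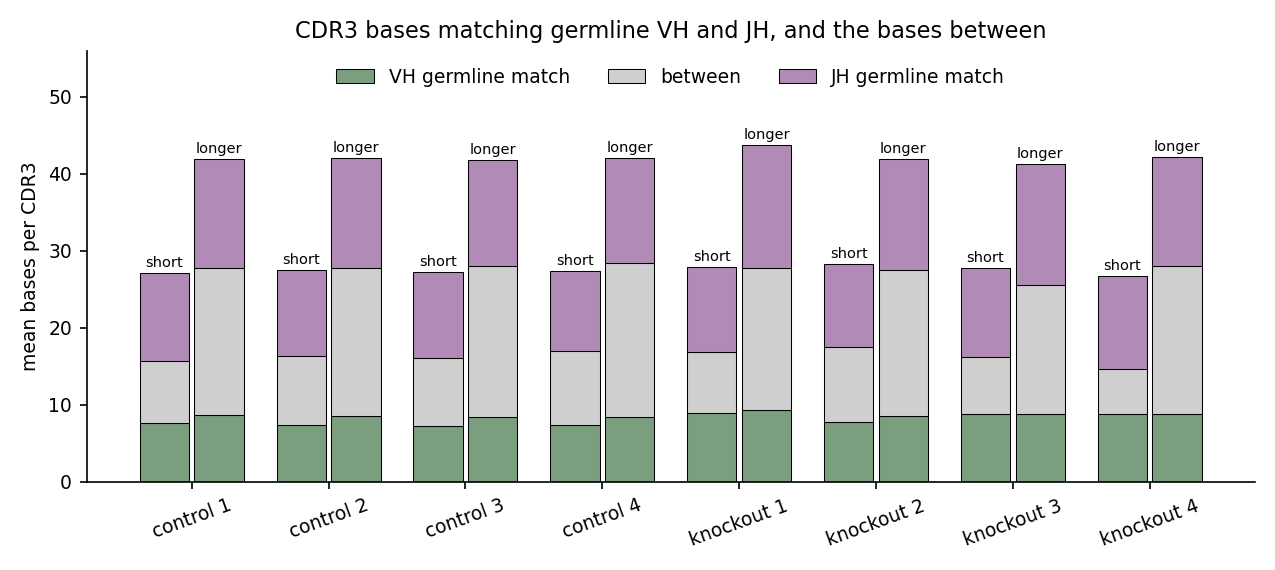
Mean bases per CDR3 (y axis) that match the germline end of a listed VH gene, that match the JH gene, and that lie between, for short and longer clonotypes of each sample. The part between is 5.91 to 9.74 bases in short and 16.9 to 19.95 bases in longer clonotypes.

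A DH segment could be recognised in few of them. A match of 8 or more bases to a DH segment was found in 16.4% of short clonotypes in the controls and 16.9% in the knockouts, against 63.7 and 66.6% of longer ones, with fewer bases to match in. The match was sought over the whole CDR3, so it can include bases also counted to VH or JH. Among those assigned to a single family, the DH4 family, which is the 11-base IGHD4-1, made up 16 of 62 short control and 6 of 11 short knockout clonotypes, against 175 of 1738 and 35 of 445 longer ones. DH2 made up 30 of 62 and 3 of 11, and DH1, whose members are longer, 12 of 62 and 1 of 11 against 646 of 1738 and 191 of 445. The sequences of IGHD4-1 and IGHD1-1 are shown because their lengths differ and the former reappears whole in a shared clonotype.
IGHD4-1: ctaactgggac
IGHD1-1: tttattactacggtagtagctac

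Residue make-up between the cysteine and the tryptophan was compared over all 20 residues. The loop's end residues are a larger part of a short CDR3, so residue shares are not independent of the length limit. None of the 20, or 0%, passed adjustment in the comparison of short with longer clonotypes, while 7 had an unadjusted p under 0.05 in the exact sign-flip test. The 3 largest positive differences were alanine at 2.80 ± 2.52 percentage points (higher in 7 of 8 samples, adjusted p = 0.0625), phenylalanine at 2.15 ± 1.55 (7 of 8, adjusted p = 0.0625) and arginine at 1.84 ± 1.84 (7 of 8, adjusted p = 0.0893), all SD, n = 8 and exact. The 3 largest negative ones were tyrosine at -2.99 ± 3.16 (lower in 7 of 8, adjusted p = 0.0893), valine at -2.09 ± 1.29 (8 of 8, adjusted p = 0.0625) and serine at -1.43 ± 1.23 (7 of 8, adjusted p = 0.0625), by the same exact test. Without the first 3 and the last 4 residues, alanine turned to -2.96 points (adjusted p = 0.0521, exact sign-flip test). Phenylalanine was then at 1.26 and arginine at 1.58 points (adjusted p = 0.299 and 0.396, same exact test). Tyrosine was at -5.91, valine at -2.34 and serine at -2.61 points (adjusted p = 0.0670, 0.0625 and 0.0625, same exact test).

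Asparagine was the 1 residue of 20, or 5%, that differed between control and knockout short clonotypes at an unadjusted p under 0.05. It made up 4.86, 4.88, 3.47 and 4.04% of residues in the controls and 0.70, 3.12, 2.70 and 3.03% in the knockouts. Each knockout lay below each control (4.31 ± 0.69% against 2.39 ± 1.14%, SD, n = 4 each, exact permutation p = 0.0286, adjusted p = 0.571), and without knockout 1 the p was 0.0571. Longer clonotypes held 2.64 and 2.72%, where another residue, aspartate, was the 1 of 20 (5%) called, and the difference of differences for asparagine was -1.997 points (exact permutation p = 0.0286, adjusted p = 0.571, 1 of 20 or 5% called). The difference between groups kept its direction but lost its call at 11 residues (-0.78 points, exact permutation p = 0.0571), with clonotypes 1 base apart merged, weighed by reads or with no listed constant region (each p = 0.0571), with 2 or more reads (p = 0.114), and with the end residues left out or 30 or more contig bases before the CDR3 (each p = 0.143). The difference of differences lost its call under the same 7 alternatives (-0.83 points at 11 residues) and without any 1 control (exact permutation p = 0.0571).

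The opening residues were also read. The common start cysteine, alanine, arginine was read in 59.3, 45.8, 46.3 and 48.4% of short clonotypes in the controls and 75, 61.5, 80 and 64.3% in the knockouts. These did not overlap, whereas longer clonotypes ranged over 71.5 to 76.7% and 68.9 to 78.8%. This readout was chosen after its values were seen and has no test. By VH family from sequence, 0 of 25 short control VH6 clonotypes had this start and 23 opened with cysteine and threonine. Of 61 short control VH14 clonotypes 27 had it, and so did 149 of 255 from other families, or 58.4%. In the knockouts the counts were 0 of 3, 8 of 11 and 33 of 44.

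Short CDR3s recurred between samples more often than longer ones. A shorter sequence has fewer possible spellings, so recurrence is not independent of the length that defines the set. A sequence shared by 2 samples counts in both, so the 8 sample values are not independent. The sign-flip p-values of recurrence do not allow for this. The same protein sequence was found in another sample for 65 of 444 short clonotypes (14.6%) and 137 of 3438 longer ones (3.98%), and the same nucleotide sequence for 24 (5.41%) and 46 (1.34%). The protein share was higher for short clonotypes in 7 of 8 samples, by 10.9 ± 7.75 percentage points (SD, n = 8, exact sign-flip p = 0.0156, a comparison added after the values were seen), the exception being knockout 1 with 0 of 20. With 1 sample left out and recurrence counted over the other 7 it ran from 8.47 to 12.6 points, and without control 3 the call was lost (9.20 points, exact sign-flip p = 0.0625). By nucleotide sequence the difference was 4.67 ± 3.34 points (exact sign-flip p = 0.0156). That call was lost without control 1 (p = 0.125), control 2 (p = 0.156) or control 3 (p = 0.0625) in the same exact sign-flip test. In the controls 57 of 379 short clonotypes recurred (15.04%) and in the knockouts 8 of 65 (12.3%). Of 21 recurring short proteins, 13 were in 2 samples, 4 in 3 and 4 in 4, while of 55 recurring longer ones 52 were in 2 and 3 in 3. Knockout 3 had 1 of 5 short and 8 of 68 longer nucleotide sequences identical to one in another sample, all but 1 of the longer ones in control 3. Without knockout 3 the protein difference was 11.3 points (exact sign-flip p = 0.0313).

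Recurring proteins were mostly spelled by different nucleotide sequences. The examples shown are a 10-residue protein found in the 4 controls, an 8-residue protein found in the 4 controls, and a 7-residue protein found in control 1 and knockouts 2 and 4, and within each the lines translate to the same residues. Capitals mark the JH match as above.
10-residue protein, control 1, 10 reads: tgtgtgagggactACTACTTTGACTACTGG
10-residue protein, controls 2 and 4, 7 and 3 reads: tgtgtgagagactACTACTTTGACTACTGG
10-residue protein, control 3, 3 reads: tgtgtgagagactatTACTTTGACTACTGG
8-residue protein, controls 1, 2 and 3: tgtgcaagagACTTTGACTACTGG
8-residue protein, controls 1, 2 and 4: tgtgcaagggACTTTGACTACTGG
8-residue protein, control 4, 1 read: tgtgcaagagacttcGACTACTGG
7-residue protein, control 1 and knockout 2, 3 and 8 reads: tgtactaactggGACTACTGG
7-residue protein, knockout 4, 1 read: tgtaccaactggGACTACTGG

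The 10-residue protein carried 23 reads over its 4 clonotypes and kept the whole 17-base IGHJ2 end in 3 of them. The 8-residue protein, at 20 reads over 7 clonotypes, ends in 14 bases of IGHJ2 in its most common spellings, with 10 bases before them. The 7-residue protein holds the IGHD4-1 segment shown above from its first base to its last in the version of control 1 and knockout 2, with the last 3 DH bases also counted to IGHJ2.

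A group of 10-residue clonotypes looked alike beyond their length: asparagine at position 4 from the cysteine, tyrosine or phenylalanine at position 5, and aspartate with tyrosine or phenylalanine before the tryptophan. This pattern was noticed in the sequences and has no test. It was met in 12, 10, 5 and 5 control clonotypes and 0, 2, 0 and 2 knockout clonotypes, that is 32 of 181 control and 4 of 39 knockout clonotypes of 10 residues. In the controls all 25 with a family by sequence were VH14, and 28 of 31 with an assigned JH gene were IGHJ2. The listed family did not always match: some of these in control 1 were listed as VH1, and others list no single family. In the knockouts 1 of 4 was VH14 and 4 of 4 were IGHJ2. The 32 control clonotypes spelled 18 proteins, none had over 10 reads, and 9 rested on 1 read. A sequence 1 base away in the same sample was found for 93 of 444 short clonotypes (20.9%) and 735 of 3438 longer ones (21.4%).

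Switched constant regions were listed on some short clonotypes. IGHA was listed for 59 of 379 in the controls (15.6%) and 13 of 65 in the knockouts (20%), against 17.7 and 18.5% of longer clonotypes. IGHG was listed for 0 short and 31 longer clonotypes, and IGHM, the isotype of a pro-B cell's heavy chain, for 0 short and 1 longer, although IGHM made up 41.4 to 48.02% of constant-region reads in the controls and 55.4 to 92.7% in the knockouts. A missing listing therefore does not say that a clonotype is unswitched. Among the 372 short clonotypes with no listed constant region, IGHJ1 was listed for 20 in the controls and 0 of 39 with a JH gene in the knockouts.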

How the data were processed

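Reads of 75 bases from poly-A RNA were aligned with STAR 2.5.1 to mm10, per the submitters' processing notes, and immunoglobulin contigs were assembled with TRUST, per the series' design text, with each sample having its own tables; the TRUST version was not given in the sources used here. The authors deposited whole read counts per gene segment and per contig, not normalized. The authors' deposited expression estimate, a coverage signal per contig, times the larger of 48 and the CDR3 length in bases came out whole within 0.01 for 100% of contigs and is called CDR3-spanning reads. The members, readouts and lists were chosen with earlier results of these data known. Clonotypes named by sequence are the 3 with most reads and the shortest of each group, the best-covered of 10 and 11 residues, and the proteins in most samples.

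Readouts per sample were compared between groups by an exact permutation test of means (70 arrangements) and within samples, short minus longer, by an exact sign-flip test (256 patterns), all two-sided, with Benjamini-Hochberg adjustment within 4 JH genes, 3 VH groups or 20 residues. Group differences are called at an unadjusted p under 0.05, within-sample ones at an adjusted p under 0.05. Germline segment sequences came from GENCODE M21, and segment positions from the authors' segment read counts. JH was assigned by mismatches after the CDR3, with ties settled by the longest exact match back from the 3′ end of the CDR3. VH family was assigned by mismatches before the CDR3 (15 or more bases). DH was assigned by a match of 8 or more bases anywhere in the CDR3, its VH and JH ends included. These assignments, the recurrence counts and the opening residues were added after seeing the data. The tests and assignments were tested on simulated data. The simulated CDR3s held a whole DH segment and long contig stretches on both sides, unlike many short clonotypes. Assignment where the contig ends close to the CDR3 was therefore not tested there. Alternatives included other length limits, merged sequences, read minimums and each sample left out. Software was scipy 1.17.1 and numpy 2.4.6 under Python 3.11.15. Light-chain tables were not used here.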

Additional observations from a re-analysis of the deposited data

Results flagged for a closer look

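In 4 of 34 groups of 4 samples a single sample stood far from the other 3. Shares flagged in the same sample are parts of 1 whole, so these cases are not independent. Knockout 3 stood apart with IGHJ2 at 40% and IGHJ3 at 40% of its 5 short clonotypes with a listed JH gene, that is 2 clonotypes each. Control 4 stood apart with serine at 5.68% of short-clonotype residues, above the other controls, and with tyrosine at 14.1%, below them. No cause was tested for any of these.

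In 2 of 28 readouts the step from longer to short clonotypes differed between control and knockout by an exact permutation test of the difference itself. For IGHJ1 the difference of differences was -12.4 percentage points and for asparagine -1.997 percentage points, each at the smallest p that 4 against 4 samples allow (exact permutation p = 0.0286, adjusted p = 0.114 and 0.571). The IGHJ1 call held under every alternative run for it, while the asparagine call was lost under 7 alternatives and without any 1 control. The IGHJ1 value rests on 52 short knockout clonotypes with a listed JH gene, 5 of them in knockout 3.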

How the results depend on the processing

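Throughout, a value is knockout minus control among short clonotypes unless given as short minus longer, and shares are in percentage points. The lower number of short clonotypes kept its call under every alternative but the replicate block, with log2 differences of -3.01 to -2.25 over the samples left out, -1.76 per 1000000 heavy-locus reads and -1.19 at equal CDR3-spanning reads. With a limit of 9 residues, which left 26 short knockout clonotypes, the clonotype share was -2.95 and the read share -2.79, both now past the threshold. Reads per clonotype turned to 0.0026 (log2), IGHJ3 to -11.2, the intermediate families to 0.31, IGHJ3 short minus longer to -5.85 and proximal families short minus longer to 0.52. The number of VH groups called was 2, of residues 2, of short-against-longer readouts 3 and of differences of differences 4. With a limit of 11 residues reads per clonotype turned to 0.032, IGHJ2 to -4.56 and the intermediate families to 5.01, and the calls were 1 VH group, 3 residues and 16 short-against-longer readouts, where 6 had been called. Asparagine, the residue called, was not among the residues called at 11 residues or without the end residues. Counting distinct proteins gave IGHJ4 -1.18, 2 residues and 13 short-against-longer calls. Merging sequences 1 base apart gave IGHJ4 -0.098, 11 such calls and 1 difference of differences. Clonotypes with 2 or more reads, as few as 1 short one in a sample, gave reads per clonotype 0.0050, IGHJ4 -11.5, proximal families short minus longer 2.55 and 3 short-against-longer calls. Contig read counts put the read share past the threshold at -4.66. Weighing by reads gave IGHJ4 -1.46 and 0 residues. Without the first 3 and last 4 residues alanine short minus longer turned to -2.96 and 2 residues were called. Among alternatives chosen after seeing the data, JH by sequence gave IGHJ2 -0.89. Clonotypes with 30 or more contig bases before the CDR3 gave IGHJ2 -2.19, 0 residues, 2 short-against-longer calls and 1 difference of differences, and contigs with no listed constant region gave a clonotype share of -4.32, IGHJ4 -1.26 and 0 residues. The causes of these changes were not tested.

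Leaving out each sample in turn, the read share ran from -6.35 to -3.60, reads per clonotype from -0.30 to 0.21, IGHJ3 from -1.38 to 7.19, IGHJ4 from -0.73 to 1.86, the intermediate families from -6.73 to 7.56 and IGHJ3 short minus longer from -1.72 to 2.35. The calls ran from 0 to 1 JH gene, 0 to 1 VH group, 1 to 4 residues, 1 to 4 short-against-longer readouts and 1 to 5 differences of differences. With the replicate block, the permutation within same-numbered pairs, the number of short clonotypes stayed at -2.72 but its exact p was 0.125, the smallest that 4 pairs allow, and 0 JH genes and 0 residues were called. Same-numbered samples share only a number: their VH profiles correlated at 0.057, 0.114, -0.030 and 0.075 in deviations from group means over 159 genes, and 2 of 4 controls correlated best with their own number. With 5 short clonotypes in knockout 3, its shares move in steps of 20 percentage points.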

Other observations

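Contigs of short clonotypes listed no JH gene in 103 of 444 cases (23.2%), against 897 of 3438 longer clonotypes (26.1%). Of the longer clonotypes with no listed JH gene, 172 matched IGHJ1 by sequence and 293 IGHJ2. Of the short ones 6 matched IGHJ1 and 26 IGHJ2, and 50 were tied between genes. Of short clonotypes listed as IGHJ2, 195 of 195 matched it best by sequence, and of those listed as IGHJ3, 61 of 62 matched IGHJ3.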
